A study of Mus musculus with 38 samples.

Results

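The regions described here are stretches of mouse liver chromatin that carried acetylated histone H3 lysine 27 (H3K27ac) after 24 h of fasting, and that overlapped at least 1 base of 3 other deposited lists. These were the H3K27ac list of fed liver, the list of CREB sites in hepatocytes given glucagon plus corticosterone, and the list of glucocorticoid receptor (GR) sites in hepatocytes given the same hormones. The regions were chosen by their listing in these 4 deposited lists, and so by the enrichment measured in them, and not by a fixed annotation. The rule found 2014 such regions, called CREB-GR regions below, among the 32103 regions of the 24 h list, a share of 6.27%. They covered 4.45 Mb, or 12.0% of the DNA in that list. Of the 32103 regions, 25577 were shared with fed liver. Besides the CREB-GR regions, these held 13952 with a CREB site and no GR site (CREB-only regions), 172 with a GR site and no CREB site, and 9439 with neither.

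All material came from C57BL/6 mice kept under a 12-hr light-dark cycle. Liver was taken from mice with free access to food, from mice fasted for 10 h (H3K27ac only) and from mice fasted for 24 h, with 3 libraries in each H3K27ac, CREB and phospho-CREB group. The fed CREB and phospho-CREB libraries carry a 24 hrs mark in their labels as well. For CREB and phospho-CREB in liver, each list is named after replicates 1 and 3 alone, so it may rest on 2 of the 3 libraries. The phospho-CREB antibody was against the form phosphorylated at Ser133. Primary hepatocytes, isolated by collagenase perfusion, were left untreated (1 CREB library) or treated for 1 h with 10 nM glucagon (2 CREB libraries) or with 10 nM glucagon and 1.7 uM corticosterone (2 CREB and 2 GR libraries). The labels give no age of the animals and no separate vehicle for the untreated cells. Each of these 11 groups had 1 deposited list, with no value for the single libraries. The spread between replicates is therefore unknown, no difference below was tested, and the intervals given are 95% Wilson intervals of a share. They cover counting error only, and neighbouring regions are not independent. The lists held between 6812 and 47777 regions, and read depth was not given in them.

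H3K27ac is laid down by acetyltransferases such as CBP and p300 and marks active enhancers and promoters. Glucagon, the hormone released by the pancreas in fasting, raises cyclic AMP in hepatocytes, and protein kinase A then phosphorylates CREB, a bZIP factor that binds cAMP response elements and recruits CBP and p300. Corticosterone is the main glucocorticoid of mice. It binds GR, a nuclear receptor that enters the nucleus and binds glucocorticoid response elements. Both factors are known for turning on genes of glucose production in the fasted liver.

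The CREB-GR regions were wide. Their median width in the 24 h list was 1832 bp, against 1155 bp for CREB-only regions, 721.5 bp for regions with a GR site and no CREB site, and 729 bp for regions with neither. The narrowest CREB-GR region spanned 252 bp and the widest 13415 bp. A wider region has more room for a site, and the share of CREB-GR regions among the regions shared with fed liver followed width. It was 3.94% between 252 and 991 bp, 6.95% between 992 and 1832 bp, 13.8% between 1833 and 2877 bp, and 26.7% above that. Since width moved with the choice of these regions, several comparisons below are given within these width bands.

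Overlap of 1 base set the border of the group. Just inside it, the region on chromosome 4 from 45496040 to 45496745 shared 1 base with a GR site, and the region on chromosome 16 from 23294758 to 23295151 shared 5 bases. Just outside, a GR site lay 1 bp beyond the region on chromosome 10 from 75295747 to 75300165 and 3 bp beyond the region on chromosome 5 from 96651515 to 96651899. Few regions were within so few bases of the border, but the size of the group did depend on the overlap rule. It was 1660 regions where overlap had to cover at least 50% of the shorter region. With the midpoints of a CREB and a GR site inside the region it was 1538, and with a gap of up to 500 bp allowed it was 2336. Of the 2014 CREB-GR regions, 103 shared fewer than 100 bp with every GR site they touched, and 188 CREB-only regions had a GR site within 500 bp. All coordinates are mm9, as in the deposited lists.

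Within the CREB-GR regions, CREB and GR sites lay on top of each other. In 1996 of the 2014 regions (99.1%, 98.6 to 99.4%) a CREB site and a GR site shared at least 1 base. The midpoints of the nearest CREB and GR sites were a median of 88.25 bp apart, with quartiles of 34 and 227 bp. They were within 100 bp in 53.3% of the regions, within 200 bp in 71.2% and within 500 bp in 92.9%. In the other 18 regions the sites did not touch, and their midpoints were 512.5 to 1974 bp apart. The sharing of bases was not limited to regions present in fed liver: among the 24 h regions that had no fed counterpart, all 332 with both factors had touching sites.

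**Figure D1:**
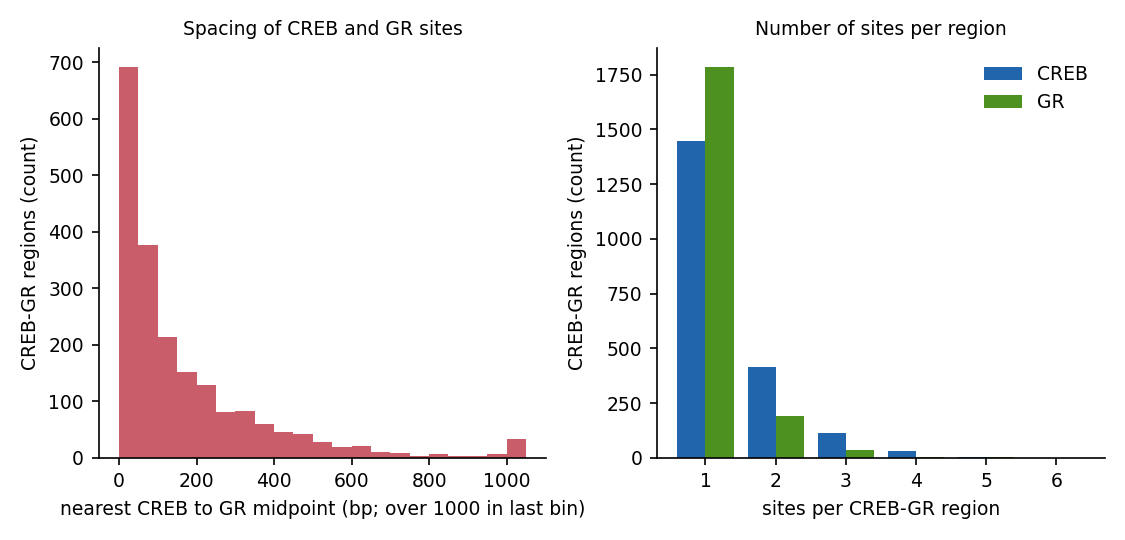
CREB and GR sites in the 2014 CREB-GR regions: counts of regions by the distance between the nearest site midpoints in bp, and by the number of CREB and of GR sites per region. Most nearest midpoints were within 200 bp (71.2%), and 1353 regions held 1 site of each factor.

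The position of GR sites was set against CREB over the whole GR list. Of the 2121 GR sites in CREB-GR regions, 98.6% shared a base with a CREB site. Every such region holds a CREB site by the rule, and other regions may lack one, so a high share was partly fixed by the choice. Of the 473 GR sites in other 24 h regions, 196 lay in regions shared with fed liver. Those regions hold no CREB site by definition, so a lower share was partly fixed there. The share was 52.6% of these 473 GR sites and 29.4% of the 9298 GR sites outside the 24 h regions. Over all 11892 GR sites it was 42.7%. Most GR sites, 78.2%, thus lay outside acetylated regions of the 24 h liver, and 17.8% lay in CREB-GR regions. The densest GR sites were distributed otherwise: of the 1196 sites in the top 10% by density, 612 (51.2%) lay in CREB-GR regions. Of the 42090 CREB sites of the same cells, 6.16% lay in CREB-GR regions. Of those in the top 10% by density 25.7% did, and 72.1% lay in any 24 h region.

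The densest CREB site of these regions ranked high in its list. Ranked among all sites of its list on a percentile scale, where 100 is densest, the densest CREB site of a CREB-GR region had a median of 91.4, and that of a CREB-only region 67.7. The rule used the same CREB list. CREB-GR regions were also wider and more often held several CREB sites, so a higher maximum was partly built in. Over single CREB sites the median was 86.8 in CREB-GR regions and 62.5 in other regions shared with fed liver. The densest GR site of a CREB-GR region had a median of 81.4, below the 88.3 of the 172 regions with a GR site and no CREB site. The 2 ranks moved together, with a Spearman rho of 0.65 over the 1989 regions that also had a 10 h region. The CREB and the GR list come from cells under the same treatment. The densest CREB site lay a median of 348.5 bp from the centre of the acetylated region and the densest GR site 380 bp.

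Most CREB-GR regions held 1 site of each factor, as 1353 of them did. The mean was 1.38 CREB sites and 1.14 GR sites per region. At least 2 CREB sites were found in 568 regions (28.2%), against 14.2% of CREB-only regions, and at least 2 GR sites in 230 (11.4%). The maximum was 6 CREB sites or 5 GR sites in a region. The number of CREB sites rose with width, with a Spearman rho of 0.57 over the same 1989 regions. Within the 3 narrower width bands the share with at least 2 CREB sites was close to that of CREB-only regions, at 3.77 against 3.69%, 12.1 against 10.8% and 25.8 against 25.5%. In the widest band it was 71.0 against 55.7%. Per kb of acetylated DNA, CREB-GR regions held 0.625 CREB sites and CREB-only regions 0.805, and in the widest band 0.464 against 0.434.

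The region with the most sites lay on chromosome 8 from 112504715 to 112514270. It held 5 CREB and 5 GR sites in 9556 bp, and its nearest pair of midpoints was 5.5 bp apart. The density percentiles of its GR sites ran from 84.7 to 98.4. In liver, the fed CREB list had 2 sites in it and the fasted CREB list 4. The widest region, on chromosome 14 from 41912260 to 41925674, held 5 CREB and 3 GR sites and its nearest midpoints were 7 bp apart. The fasted-liver lists had 2 CREB and 5 phospho-CREB sites there, while the fed-liver lists had none of either. The other 3 regions with 8 sites were on chromosome 15 from 59479958 to 59486548 with 5 CREB and 3 GR sites, on chromosome 11 from 86391560 to 86402044 with 4 of each, and on chromosome 2 from 32275811 to 32279714 with 3 CREB and 5 GR sites. All 5 of these regions also had CREB sites in untreated and in glucagon-treated hepatocytes.

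CREB was in most of these regions before any hormone was given. Untreated hepatocytes had a CREB site in 1918 of the 2014 regions (95.2%, 94.2 to 96.1%), against 61.5% of all regions shared with fed liver and 87.1% of CREB-only regions. With glucagon alone, 1886 (93.6%) had a CREB site, against 49.5% of all shared regions and 73.6% of CREB-only regions. A CREB site was listed under all 3 hepatocyte conditions in 1833 CREB-GR regions (91.0%), in 45.4% of all shared regions and in 70.2% of CREB-only regions. In 43 CREB-GR regions (2.14%) CREB was listed only where corticosterone had been added, against 5.30% of all shared regions and 9.41% of CREB-only regions. The rule asked for a hepatocyte CREB site under both hormones, which many of the shared regions lack. The contrasts with all shared regions were thus partly fixed by the choice, while CREB-only regions hold such a site too. The counts for all 3 conditions and for corticosterone only also include the CREB list of the rule. These lists differ in length, at 47596, 28229 and 42090 sites for untreated, glucagon and glucagon plus corticosterone, and the untreated list rests on 1 library.

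The CREB sites that touched GR stood higher in the hormone lists than in the untreated list. Ranks were set among the 18840 CREB sites listed under all 3 conditions, so that the lists had equal length. The 1729 such sites that touched a GR site in CREB-GR regions had a median rank of 60.8 in untreated cells, 75.1 with glucagon and 82.8 with both hormones. The 296 CREB sites of the same regions that touched no GR site had medians of 48.1, 51.2 and 50.7, and the 9327 in CREB-only regions 59.2, 52.1 and 48.8. From untreated to glucagon, 44.7% of the sites at GR stood at least 10 percentile points higher, against 25.2% of all ranked sites, and 13.9% lower, against 28.0%. From glucagon to both hormones 31.8% stood at least that much higher, against 21.2%, and 6.30% lower, against 22.4%. From untreated to both hormones 58.7% stood higher, against 25.7%, and 8.85% lower, against 33.4%. The 2 comparisons with untreated cells share that list. Touching a GR site was itself set in cells given both hormones, so the third list is not independent of the choice of sites. A listing in untreated and in glucagon-treated cells was needed too, which 1729 of the 1956 CREB sites at GR met, so the ranks describe sites present throughout.

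**Figure D2:**
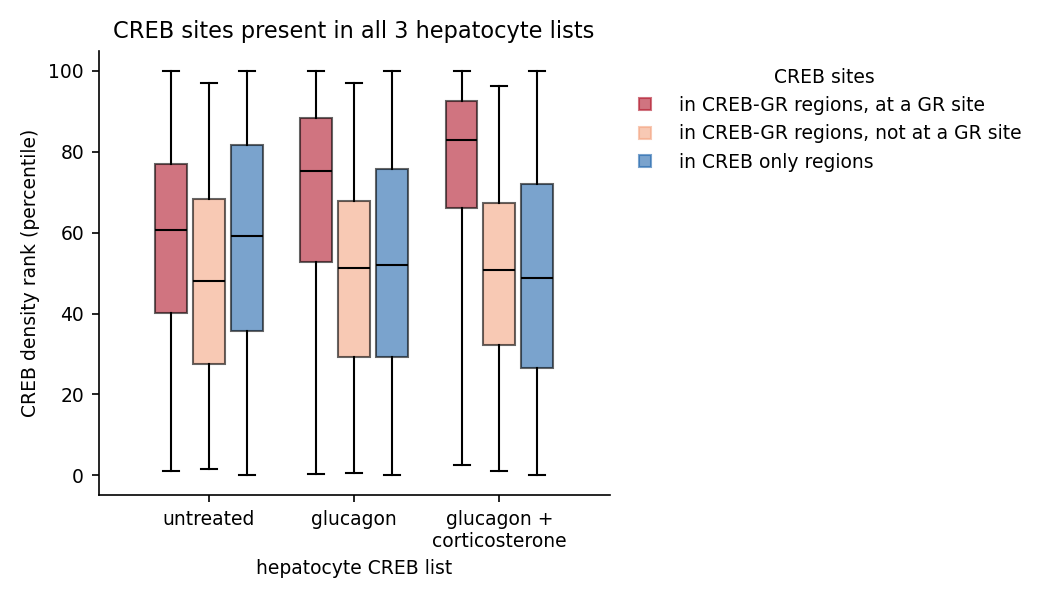
Percentile rank of hepatocyte CREB sites, among the 18840 sites listed under all 3 conditions, by condition and by position of the site; boxes show quartiles and median, whiskers the lowest and highest site. The median of sites at GR in CREB-GR regions went from 60.8 to 82.8, and that of CREB sites in CREB-only regions from 59.2 to 48.8.

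The same CREB sites were also listed more often in liver when they touched GR. Of the 1956 CREB sites at a GR site in CREB-GR regions, 35.3% overlapped a CREB site of fed liver and 39.3% one of fasted liver. Of the 638 sites of these regions that touched no GR site, 12.1% and 11.8% did. The sites at GR were wider, with a median of 1212 against 682 bp, and much of this contrast went with width. Among sites over 1000 bp wide, 42.7% of those at GR overlapped a fed-liver and 48.3% a fasted-liver site. Of the 118 such wide sites of CREB-GR regions that touched no GR site, 36.4% and 28.0% did, and of the 4696 in CREB-only regions 54.8% and 47.5%. Among these wide sites the fasted share was above the fed share for those at GR and below it for the others, and the fed share was largest in CREB-only regions. Among sites of 500 to 1000 bp the pattern was another: the shares were 16.3% and 16.3% at GR, 8.96% fed and 10.9% fasted for sites of CREB-GR regions that touched no GR site, and 13.7% and 8.39% in CREB-only regions.

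CREB in liver was found in fewer of these regions than in hepatocytes. This was partly fixed by the choice, since a hepatocyte CREB site was part of the rule. Both liver CREB lists were also shorter than the hepatocyte CREB lists, which held 28229 to 47596 sites. Fed liver had a CREB site in 766 of the 2014 regions (38.0%, 35.9 to 40.2%), against 20.3% of all regions shared with fed liver and 28.2% of CREB-only regions. Liver fasted for 24 h had one in 838 (41.6%, 39.5 to 43.8%), against 17.0% of all shared regions and 22.4% of CREB-only regions. The 172 regions with GR and no hepatocyte CREB site had far higher shares, 86.6% in fed and 86.0% in fasted liver. From fed to fasted the share was slightly higher in CREB-GR regions and lower in CREB-only regions. In the narrowest width band the direction turned for CREB-GR regions, with 30.4% in fed and 28.0% in fasted liver. The fasted list was also the shorter one, with 11339 sites against 13142.

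The split of the liver lists showed where the 2 classes of regions parted. CREB sites in both liver lists were found in 631 CREB-GR regions (31.3%), against 14.8% of all shared regions. A CREB site in the fasted list only was found in 207 (10.3%, 9.03 to 11.7%), against 2.18% of all shared regions and 2.18% of CREB-only regions. One in the fed list only was found in 135 (6.70%), against 5.50% of all shared regions and 8.04% of CREB-only regions. The remaining 1041 (51.7%) had none, against 77.5%. The contrast held in each width band: the share with CREB in the fasted list only was 5.95, 7.36, 12.9 and 14.9% of CREB-GR regions from the narrowest band to the widest, and 1.55, 2.38, 2.42 and 4.05% of CREB-only regions. The share with CREB in the fed list only was 8.33, 6.36, 7.36 and 4.76% against 7.05, 7.96, 9.39 and 10.5%.

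**Figure D3:**
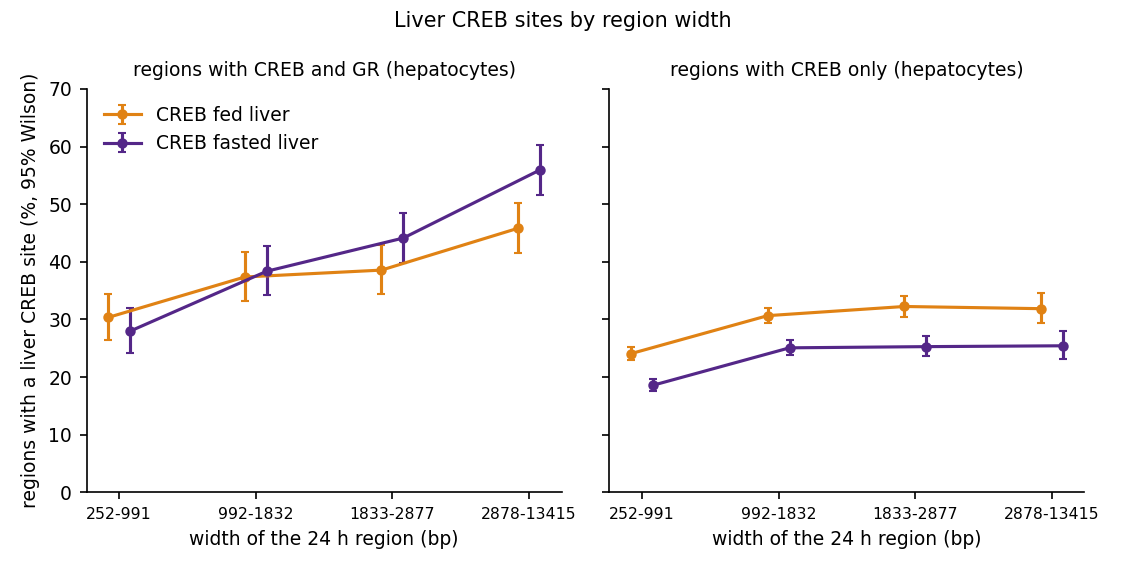
Percent of CREB-GR and of CREB-only regions with a liver CREB site in the fed and in the fasted list, by width band of the region, with 95% Wilson intervals. In the widest band 56.0% of CREB-GR regions had a fasted-liver site and 45.8% a fed-liver site, against 25.4% and 31.9% of CREB-only regions. In the narrowest band the CREB-GR shares were 28.0% fasted and 30.4% fed.

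Where both liver lists had a CREB site, its rank could be compared as well. Among the 3782 regions shared with fed liver that had one in both lists, the 631 CREB-GR regions had a median rank of 26.8 in the fed and 37.6 in the fasted list. They were low in either list, while CREB-only regions had 53.5 in the fed and 50.8 in the fasted list, and low ranks have more room to rise. At least 10 percentile points higher in the fasted list were 199 of them (31.5%, 28.0 to 35.3%), against 16.0% of all 3782 and 12.0% of CREB-only regions. At least as much lower were 79 (12.5%), against 17.5% and 20.1%.

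Phospho-CREB sites were scarce in the CREB-GR regions and in all regions. The fed-liver list had one in 207 (10.3%), against 5.97% of all shared regions and 7.28% of CREB-only regions. The fasted-liver list had one in 135 (6.70%), against 3.33% of all shared regions and 3.02% of CREB-only regions. A phospho-CREB site in the fasted list only was found in 45 CREB-GR regions (2.23%) and in 19 CREB-only regions (0.136%), against 0.282% of all shared regions. One in the fed list only was found in 117 CREB-GR regions (5.81%) and in 4.39% of CREB-only regions, against 2.92% of all shared regions. Of the 252 CREB-GR regions with phospho-CREB in either list, 95.6% also had a fasted-liver CREB site and 92.1% a fed-liver CREB site. Regions of all 11 lists met in 74 CREB-GR regions (3.67%). The lists of the rule are among the 11, so regions of the other classes could not be counted here. The 172 regions with a GR site and no hepatocyte CREB site had another make-up: 147 of them (85.5%) had phospho-CREB in both liver lists.

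Nearly all CREB-GR regions were acetylated at 10 h of fasting too. The 10 h list, which the choice of regions did not use, overlapped 1989 of the 2014 (98.8%, 98.2 to 99.2%), against 95.4% of all shared regions and 98.1% of CREB-only regions. The other 25 spanned 597 bp at the median and had low density at 24 h, with a median of 13.4 against 31.6 for all CREB-GR regions. Density is the maximal tag density that the deposited lists give for a region.

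To set acetylation side by side across lists of unequal length, the 24405 24 h regions that overlapped a fed and a 10 h region were ranked 3 times, each time by the density of the densest overlapping region. A rank of 100 is the densest and 50 the middle of this common set. The 1989 CREB-GR regions in it had a median rank of 67.7 (95% interval 65.3 to 69.5) in fed liver, 72.6 (70.6 to 73.7) at 10 h and 72.7 (71.3 to 74.1) at 24 h. CREB-only regions had 60.1, 58.6 and 60.4, and regions with neither factor 31.2, 29.8 and 29.1. In the densest 10% of the common set stood 19.4% of the CREB-GR regions in fed liver, 24.1% at 10 h and 23.6% at 24 h. CREB-GR regions were thus above the middle already in fed liver. Density is a maximum over the region, and CREB-GR regions were wider than the other classes. Those with 1 CREB site had a median width of 1449.5 bp and a median fed rank of 58.0. Those with at least 2 had 3336.5 bp and 86.1. The ranks were not split by width band, and how far the class differences go with width was not tested. The size of the difference between fed and 24 h depended on how regions were matched. Among regions matched 1 to 1 across the 3 lists, the CREB-GR medians were 69.6 fed, 74.5 at 10 h and 71.7 at 24 h, and with each list cut to its upper 50% they were 63.3, 68.5 and 66.4.

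**Figure D4:**
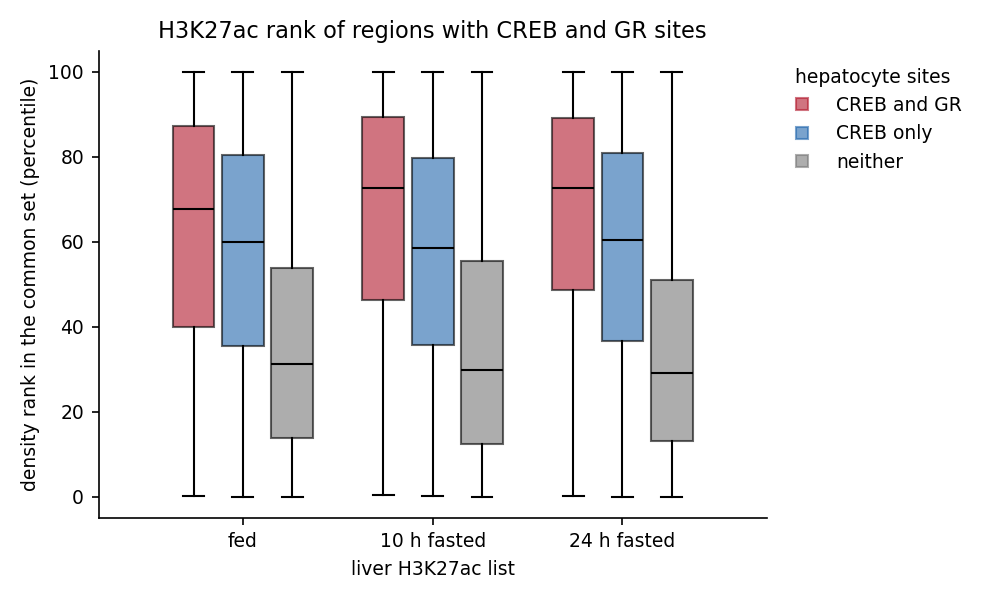
Percentile rank of H3K27ac density in fed, 10 h fasted and 24 h fasted liver within the common set of 24405 regions, for each class of regions; boxes show quartiles and median, whiskers the lowest and highest region. CREB-GR regions have the highest medians in all 3 lists (67.7, 72.6 and 72.7), without a split by region width.

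Region by region, more CREB-GR regions stood higher than lower after fasting. From fed to 24 h, 578 of the 1989 (29.1%, 27.1 to 31.1%) stood at least 10 percentile points higher, against 22.6% of the common set and 22.3% of CREB-only regions. At least 10 points lower stood 247 (12.4%, 11.0 to 13.9%), against 19.5% and 17.9%. Of the 169 ranked regions with a GR site and no CREB site, 33.7% stood higher and 2.96% lower, with a median shift of 6.35 points. The median shift of CREB-GR regions was 2.31 points, the lowest was -55.8 and the highest 74.0. At 10 h, 623 (31.3%) stood at least 10 points higher than in fed liver, against 23.9% of the common set, and 358 (18.0%) lower, against 25.6%. The 2 comparisons share the fed list. Between 10 h and 24 h, 503 (25.3%) stood higher, against 30.0% of the common set, and 439 (22.1%) lower, against 25.7%. Presence in the fed and the 24 h list was part of the rule, so their difference is given as a description.

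How the lists were segmented moved these counts. In 193 CREB-GR regions the overlapping fed region also reached another 24 h region, so that 1 fed density was set against fragments. Of the 189 of these in the common set, 5.82% stood at least 10 points higher at 24 h than in fed liver and 44.4% lower, while of the 1800 others 31.5% stood higher and 9.06% lower. When only the 1184 CREB-GR regions that matched 1 fed and 1 10 h region were ranked, among 16434 regions matched in this way, 273 (23.1%) stood higher, against 18.5% of that set, and 14.1% lower, against 19.3%. Their median shift was 0.80 points.

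The share of regions that stood higher at 24 h fell with fed rank, as low ranks have more room to rise. Within the lowest 20 points of fed rank, 57.1% of CREB-GR regions stood at least 10 points higher at 24 h, and 39.7% of CREB-only regions did. The shares were 56.4 against 37.7% between 20 and 40, 41.0 against 30.2% between 40 and 60, and 28.3 against 18.1% between 60 and 80. In the top band they were 3.99 against 1.68%. The CREB-GR share was the larger in all 5 bands. The share that stood at least 10 points lower was the smaller in all 5 bands, from 2.21 against 4.15% in the lowest to 12.0 against 16.6% in the top band.

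**Figure D5:**
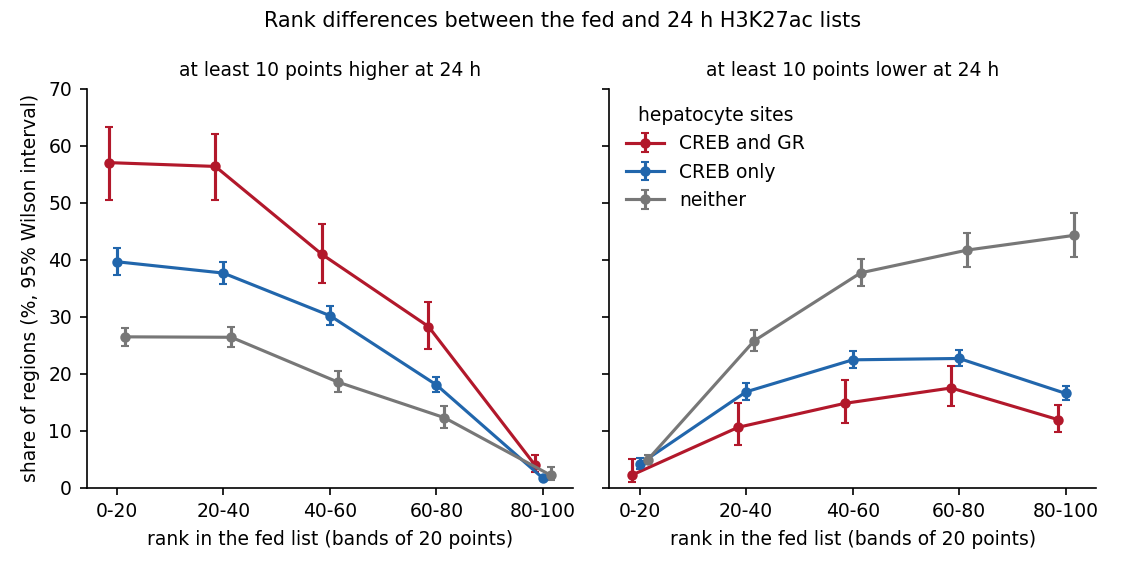
Percent of CREB-GR and of CREB-only regions that stood at least 10 percentile points higher, or lower, in the 24 h than in the fed H3K27ac list, by band of fed rank, with 95% Wilson intervals. In the lowest band 57.1% of CREB-GR regions and 39.7% of CREB-only regions stood higher.

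CREB-GR regions differed among themselves along the liver CREB lists. The 207 with liver CREB in the fasted list only had a median shift in acetylation rank of 7.28 points from fed to 24 h, with 41.1% at least 10 points higher and 4.83% lower. The 132 ranked regions with liver CREB in the fed list only had a median shift of -0.27, with 18.2% higher and 18.2% lower. With CREB in both lists the shares were 29.3% and 6.53%, and with CREB in neither 27.9% and 16.8%. Among CREB-only regions, 29.0% stood higher and 10.1% lower where CREB was in the fasted list only, and 20.9% and 16.2% where it was in the fed list only. With CREB in both lists the CREB-only shares were 23.3% and 8.12%, and with CREB in neither 22.0% and 21.2%. The share that stood lower was smallest with CREB in both lists there, and with CREB in the fasted list only among CREB-GR regions. Liver CREB and liver H3K27ac were measured in separate libraries.

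GR density went with the shift in acetylation rank from fed to 24 h to a small degree. Among CREB-GR regions in the lower, middle and upper tercile of GR density, 24.8, 27.3 and 35.1% stood at least 10 points higher at 24 h, and 14.4, 13.6 and 9.20% lower. A fasted-liver CREB site was present in 34.7, 36.6 and 53.5% of them, and their median fed ranks were 65.5, 65.6 and 71.7. Across the 1989 regions the Spearman rho with the shift was 0.14 for GR density percentile, 0.08 for CREB density percentile and 0.03 for region width. The 43 regions in which hepatocyte CREB was listed only with corticosterone had a median shift of 11.3 points. Of these, 24 (55.8%, 41.1 to 69.6%) stood higher, against 22.6% of the common set. Their median fed rank was 36.1, against 67.7 for all CREB-GR regions, and such low ranks have more room to rise. Among all CREB-GR regions with a fed rank between 20 and 40, 56.4% stood higher and the median shift was 13.7, so the 43 did not stand out.

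Widths at 24 h were close to those in fed liver. The median over the 1989 regions was 1760 bp in the fed list, 2376 bp in the 10 h list and 1853 bp in the 24 h list. For the fed and the 10 h list, the full widths of all regions that overlapped the 24 h region were added up. The 24 h region was wider than its summed fed regions in 1259 (63.3%), with a median ratio of 1.04. The share was 49.9% in the common set, 51.1% in CREB-only regions and 66.9% in regions with GR and no CREB site. The 24 h region overlapped at least 2 fed regions in 236 (11.9%), against 5.91% of the common set. By the rule, CREB and GR sites had to touch the 24 h region and not the fed region, so regions that reach further at 24 h were favoured. Both contrasts with the common set were thus partly built in, and they were not split by width band. In the 10 h list, 557 CREB-GR regions (28.0%) shared their 10 h region with another 24 h region, close to the 24.0% of the common set. Such a 10 h region entered the widths in full for each 24 h region, which raises the 10 h median.

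The regions of highest 24 h density were high in fed liver as well. The densest, on chromosome 6 from 114840123 to 114845181, had a density of 317.6 at 24 h and ranks of 99.97 in fed liver and 98.8 at 10 h. It held 2 CREB and 2 GR sites. The next, on chromosome 8 from 4317949 to 4321888, had a density of 293.4 and ranks of 99.1 in fed liver, 57.3 at 10 h and 99.99 at 24 h, so that its 10 h rank stood apart. The other 3 of the 5 densest, on chromosomes 4, 9 and 7, had fed ranks of 99.9, 95.6 and 95.4.

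The 5 regions with the largest gain in rank all started low. On chromosome 5 from 136115637 to 136117490, the rank was 19.7 in fed liver, 97.5 at 10 h and 93.7 at 24 h. It held 1 CREB site and 1 GR site of density percentiles 96.9 and 96.3, and had no CREB site in untreated or glucagon-treated hepatocytes or in liver. On chromosome 17 from 28654383 to 28656328, the ranks were 27.4, 72.4 and 93.0, again with CREB listed only where corticosterone was added. On chromosome 6 from 84174863 to 84176574 they were 15.3, 65.8 and 85.7. The region on chromosome 19 from 18219789 to 18221910 went from 4.66 in fed liver to 60.8 and 68.4. The rank on chromosome 4 from 49160816 to 49163096 was 5.91 in fed liver, 25.3 at 10 h and 74.1 at 24 h, the latest gain of the 5, and this was the 1 region of the set with CREB in liver, in both lists. Of the 5, 3 had CREB in untreated hepatocytes and 1 with glucagon.

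The 5 regions with the largest loss in rank were narrow, from 264 to 794 bp at 24 h, against 1299 to 3010 bp in fed liver. For 4 of the 5, the fed region also reached another 24 h region. The largest loss was on chromosome 4 from 141626299 to 141626905, with ranks of 83.8 in fed liver, 80.5 at 10 h and 28.0 at 24 h. All 5 had a CREB site under all 3 hepatocyte conditions.

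CREB-GR regions were spread over the genome. With gaps of up to 10 kb, 687 of them (34.1%) formed 293 runs, of which 72 had at least 3 regions. With the same gap, 66.8% of all shared regions and 50.3% of CREB-only regions lay in runs of their own class. These classes hold more regions. The longest run, on chromosome 15 from 96834162 to 96881371, had 9 regions in 47.2 kb, with 10 CREB and 10 GR sites. Their 24 h ranks ran from 56.0 to 97.1. Among autosomes the share of the shared regions that were CREB-GR regions went from 6.36% on chromosome 5 to 10.4% on chromosome 10, and it was 4.64% on chromosome X.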

How the data were processed

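The series holds ChIP-seq of mouse liver and primary hepatocytes. The authors deposited lists of enriched regions in mm9 coordinates, 1 for each of 11 groups used here. The submitters' processing notes name CASAVA 1.8 and mm9. The names of the H3K27ac lists carry the word hotspot, which may name the peak caller, and those of the factor lists an FDR mark. Beyond these marks, the sources used here do not give the aligner, the peak caller or its threshold. Per the file headers, each region has a maximal tag density, treated here as signal, and a z-score, an enrichment score in the deposited lists. Neither is given per library, so no test was run. Liver GR and C/EBPb samples were not analysed here, nor were 8 value columns of 2 deposited lists that match no sample.

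Overlap was at least 1 shared base, with both ends counted. Tables were handled with pandas 2.3.3 and numpy 2.4.6 under Python 3.11.15, correlations came from SciPy 1.17.1 and plots from matplotlib 3.10.9. The overlap code was tested on simulated data. The rank of a region is its percentile in the common set, by the signal of the densest overlapping region. The Wilson intervals (95%) take in counting error alone. Regions were named by rule, 5 each by 24 h density, rise, fall, number of sites and width. The regions and comparisons were chosen with earlier results of these data known. No mm9 genome or annotation was used here, so no genes or sequences are given and planned gene lists were not run.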

Additional observations from a re-analysis of the deposited data

How the results depend on the processing

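With no values per library, depth and replicate spread are unknown, and leaving out a replicate could not be run. No paired analysis was possible because the deposited lists hold 1 pooled value per group. Over 12 alternatives, 118 of 159 recomputed values stayed within the interval of the reported value or within 1.5 times a reported count. A change of direction was scored only for values that are a difference between percentages, and 0 of these changed sign. The order of the 10 h and 24 h median ranks was not scored in this way, and it did change in some settings, as given below. In the following, "lower gap" is the percent of CREB-GR regions ranked at least 10 points lower at 24 h than in fed liver minus that of the common set (reported -7.11), and "higher gap" the same for higher ranks (reported 6.44).

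Where overlap had to cover 50% of the shorter region, median ranks were 71.5 fed, 75.2 at 10 h and 76.2 at 24 h, the median width was 2057.5 bp and the lower gap -8.77. With the midpoints of a CREB and a GR site inside the region, ranks were 73.9, 76.9 and 78.2, the width 2164 bp, the 10 h share 99.3%, the liver CREB shares 40.4% fed and 45.1% fasted, 146 regions ranked lower and the lower gap was -9.97. The percent of CREB-only regions with liver CREB in the fasted list only minus the fed list only was then -6.21 (reported -5.86). With gaps of up to 500 bp allowed, the 24 h rank was 70.9, the width 1637.5 bp, the higher gap 4.25, and CREB-GR regions with liver CREB in the fasted list only minus the fed list only made 2.10 percentage points (reported 3.57). With the upper 50% of each list, ranks were 63.3, 68.5 and 66.4, the width 2243 bp, touching sites 98.4%, the higher gap 3.82 and the lower gap -5.24. With H3K27ac lists of equal length, the 10 h share was 96.8% and the 24 h rank 71.0. Ranks by z-score gave a lower gap of -9.08. With a threshold of 5 points, 411 regions ranked lower and the lower gap was -8.85. With 20 points, 283 ranked higher and 90 lower, and the lower gap was -4.67. With 1-to-1 regions, an alternative chosen after seeing the data, ranks were 69.6 fed, 74.5 at 10 h and 71.7 at 24 h, 273 regions ranked higher and the lower gap was -5.19. With the upper 50% and with 1-to-1 regions, the 10 h median was above the 24 h median. Where the overlapping region with the longest shared stretch was ranked, the 10 h median was slightly above too, at 72.70 against 72.68. The causes of these differences were not tested.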
